A study of Mus musculus with 9 samples.

Results

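The immediate early genes Egr1, Egr2, Egr3, Fos, Fosb, Jun, Junb, Jund, Nr4a1 and Nr4a2 were followed through 9 CUT&Tag peak lists of mouse bone marrow stem and progenitor cells. They are 10 of 21883 protein-coding genes, chosen by name and not by a cut on a measured value. Earlier results of these data were known when they were chosen. Every peak that overlapped a gene's RefSeq span, extended by 20 kb on each side, was taken (mm10 coordinates, counted from 1). In CUT&Tag a transposase, held at a protein by an antibody, tags the DNA beside it, and a peak is a place where the tagged reads pile up. The control mice (fl) carried a floxed Dek gene without Cre (Dekfl/fl). In the deleted mice (cKO) Tie2-Cre, active in endothelial and blood-forming cells, acted on the same floxed gene (Dekfl/fl,Tie2-Cre). HSC were sorted as Lin-Sca-1+c-Kit+CD48-CD150+. All mice were C57BL/6, untreated and 12 weeks old (labelled 3 months). For the chromatin protein DEK there were 3 fl libraries, each of about 20000 sorted haematopoietic stem cells (HSC). H3K9ac had 1 fl and 1 cKO library of HSC, and H3K27ac and H3K4me3 each had 1 fl and 1 cKO library of about 50000 LSK cells, the broader Lin-Sca-1+c-Kit+ gate. Whether animals were pooled is not given in the sources used here.

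Immediate early genes are transcribed within minutes of a growth, cytokine or stress signal, without new protein synthesis. Signals reach them through MAP kinases, the serum response factor SRF with its ETS partners, and CREB. EGR proteins are zinc-finger transcription factors, FOS and JUN proteins pair to form the AP-1 factor, and the NR4A proteins are orphan nuclear receptors. Egr1 and Nr4a1 are known for holding stem cells in quiescence. H3K4me3 marks promoters that are active or ready, and H3K27ac and H3K9ac mark active promoters and enhancers.

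The lists gave peaks but no read counts, so depth is unknown. The fl and cKO lists held 10494 and 16331 peaks for H3K27ac, 10514 and 10159 for H3K4me3, and 2172 and 3431 for H3K9ac. The DEK lists held 2054, 2111 and 6146. The HSC gate of the DEK and H3K9ac libraries was not checked. The LSK gate was checked on H3K4me3 at marker gene starts (45.7% of all protein-coding genes carried it in fl and 44.6% in cKO). Of 12 stem and progenitor markers 9 carried it in fl and 8 in cKO, but Ly6a, which encodes the gate antigen Sca-1, and Slamf1, which encodes CD150, did so in neither. None of 4 T cell, 4 B cell and 4 endothelial markers did. Of 6 granulocyte and macrophage markers 1 did in fl (Mpo) and 1 in cKO (S100a8). Of 4 erythroid markers 2 did in fl (Klf1 and Epor) and 3 in cKO (Hbb-bt added). In H3K27ac the 12 stem and progenitor markers counted 1 in fl and 7 in cKO (against 22.6% and 43.9% of all genes). Of the T cell markers it was present at 0 of 4 in fl and 1 in cKO (Cd4), and of the endothelial markers at 0 of 4 and 1 (Kdr), both without H3K4me3. Of the erythroid markers 1 of 4 had it in each list (Klf1), and no B cell, granulocyte or macrophage marker had it in either. The part of other cells in the results was not tested. With 1 library per histone mark in each genotype, the differences given below were neither replicated nor tested, and a place without a peak may lie under the caller's threshold.

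A start was called marked when a peak lay within 1 kb of an annotated transcription start. The immediate early genes mostly carried H3K4me3 there in both genotypes, at 8 of 10 starts in fl and 9 in cKO (against 45.7% and 44.6% of all protein-coding genes). H3K27ac was found at 3 starts in fl and at 9 in cKO (against 22.6% and 43.9%). Fosb, Jun and Nr4a1 had H3K27ac in both lists (3 of 10, against 22.3% of all protein-coding genes). Egr1, Egr2, Egr3, Junb, Jund and Nr4a2 had it in cKO only (6 of 10, against 21.7% of all genes), and none had it in fl only (against 0.361%). Fos had none within 1 kb in either list (1 of 10, against 55.7%). Of the 8 immediate early genes with H3K4me3 in both lists, 4 had H3K27ac in cKO only, 3 in both, 0 in fl only and 1 in neither. Over all 9396 genes with H3K4me3 in both lists these shares were 33%, 48.9%, 0.532% and 17.6%. The longer cKO H3K27ac list bears on this count. With both lists cut to the length of the shorter, Egr1, Egr2 and Nr4a2 were cKO only (3 of 10, against 11.4% of all genes), none was fl only (against 1.91%), and Egr3, Junb and Jund had no start peak in either list. Fosb, Jun and Nr4a1 were again in both (against 20.7%). The window's width also mattered. Within 2.5 kb of a start, H3K27ac was in both lists at 5 genes, Fos and Junb added (against 23.3% of all genes), in cKO only at 5 (22.3%) and in fl only at 0 (0.443%). H3K4me3 was then in both at 9 (44.1%), in fl only at Egr3 (2.84%) and in cKO only at 0 (1.65%).

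The cKO-only peak lay over a listed start of Egr2 and of Junb and 38 bp upstream of that of Nr4a2, and the 250 bases before those starts are shown because that is where the genotypes' lists differed. Sequences are from RefSeq (GRCm38.p6), written in the direction of transcription, and capitals mark the bases inside the cKO H3K27ac peak. For Egr2, which has 5 listed starts, the windows of the start nearest the peak summit and of a later start are given. The table used has no entry for Egr1 or Egr3, and the 250 bases before the listed Jund start held no peak of any histone list and are not printed.
Egr2, start at 67537566, chr10:67537316-67537565, plus strand: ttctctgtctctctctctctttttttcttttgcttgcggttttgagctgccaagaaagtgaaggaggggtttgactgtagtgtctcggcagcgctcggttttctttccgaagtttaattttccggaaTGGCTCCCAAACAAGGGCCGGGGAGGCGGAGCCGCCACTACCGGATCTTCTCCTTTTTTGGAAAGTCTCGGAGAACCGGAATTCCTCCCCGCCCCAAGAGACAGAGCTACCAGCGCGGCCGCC
Egr2, start at 67537869, chr10:67537619-67537868, plus strand: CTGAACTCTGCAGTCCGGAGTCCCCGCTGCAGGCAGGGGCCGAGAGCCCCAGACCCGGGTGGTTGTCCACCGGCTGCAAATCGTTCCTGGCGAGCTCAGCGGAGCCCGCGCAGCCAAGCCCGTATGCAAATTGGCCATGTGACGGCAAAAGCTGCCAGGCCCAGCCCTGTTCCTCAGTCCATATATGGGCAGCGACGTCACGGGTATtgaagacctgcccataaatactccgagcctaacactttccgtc
Junb, start at 84978748, chr8:84978749-84978998, minus strand: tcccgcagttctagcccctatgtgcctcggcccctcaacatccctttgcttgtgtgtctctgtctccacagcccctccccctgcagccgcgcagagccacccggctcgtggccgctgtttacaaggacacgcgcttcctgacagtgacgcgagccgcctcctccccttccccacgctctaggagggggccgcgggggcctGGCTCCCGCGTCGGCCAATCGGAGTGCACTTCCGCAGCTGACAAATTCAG
Nr4a2, start at 57124003, chr2:57124004-57124253, minus strand: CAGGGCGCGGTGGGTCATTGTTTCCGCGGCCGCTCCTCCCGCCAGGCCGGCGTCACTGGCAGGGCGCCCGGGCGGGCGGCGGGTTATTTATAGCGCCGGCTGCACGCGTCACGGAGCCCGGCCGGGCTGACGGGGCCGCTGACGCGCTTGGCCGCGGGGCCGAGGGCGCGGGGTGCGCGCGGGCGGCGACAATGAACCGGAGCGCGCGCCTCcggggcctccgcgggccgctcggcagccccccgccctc

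The capitals make up 123 and 207 of the 250 bases in the Egr2 windows, 50 in Junb, where the peak reaches back from the gene body, and 212 in Nr4a2. Both Egr2 windows hold a match to the CArG box, the sequence SRF binds, and both matches lie inside the cKO-only peak. They read CCTTTTTTGG, 72 bases before the first of these starts (chr10:67537494-67537503), and CCATATATGG, 72 bases before the second (chr10:67537797-67537806). Egr2 was the 1 gene of the 8 in the promoter table with a CArG box in the 250 bases before a listed start. Bases farther from a start were not searched, nor were Egr1 and Egr3, so a site there would be missed. Of all 32851 promoter windows of this length 1.47% hold one. The 8 genes have 12 windows, 5 of them from Egr2. The counts by gene here and below are therefore not on the same scale as the shares of windows. Fosb (GCGGGGGCG, 50 bases before the start) and Nr4a1 (CGCCCCCGC, the reverse strand, 60 bases before) hold an EGR motif, searched as GCGTGGGCG or GCGGGGGCG, against 3.06% of windows. TATAAA was found in Fos (33 bases before the start) and, reversed, in Nr4a2 (164 bases before), against 12.4% of windows. The CRE letters TGACGTCA and the AP-1 letters TGAGTCA were found in none of the 8 genes' windows (1.55% and 4.46% of all windows). Both strands were searched throughout, the CArG box with any A or T in its centre. A match describes the letters only. The C and G content of the 4 printed windows was 54.0%, 61.6%, 66.4% and 80.0%, against a median of 52.4% over all windows. The motif shares were not matched for it.

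**Figure D1:**
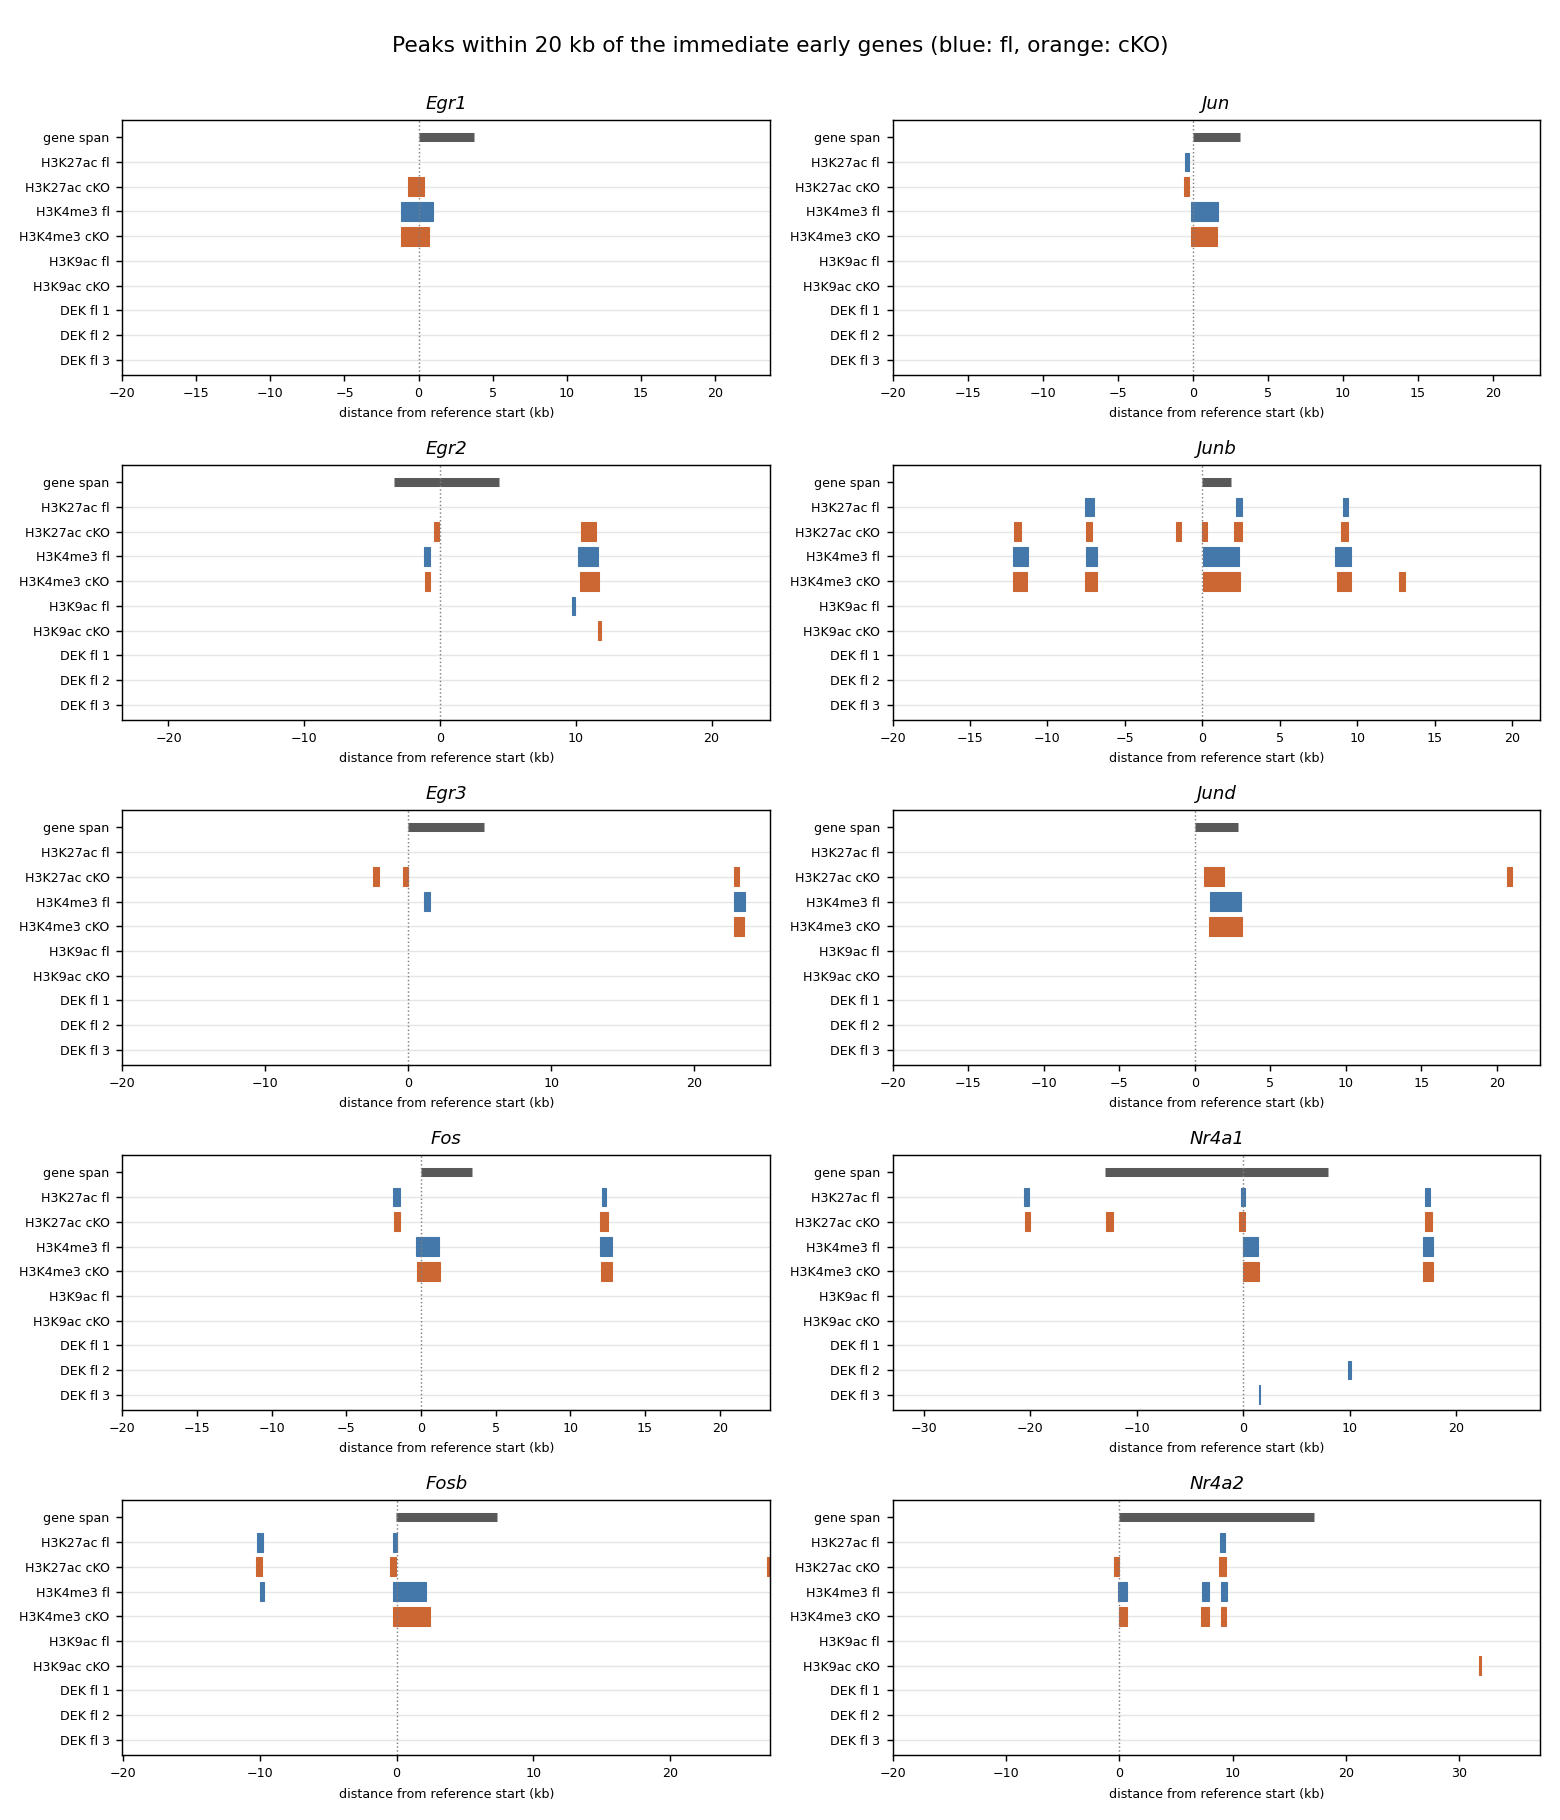
Peaks of the 9 lists around each gene, with position in kb from a reference start on the x axis and 1 row per list (blue fl, orange cKO, grey bar the gene span), where positive is into the gene, Egr1 and Egr3 are drawn from the lower-coordinate end and Egr2 from the median of its 5 listed starts. The fl H3K27ac row is empty for Egr1, Egr2, Egr3 and Jund, and DEK appears at Nr4a1 only.

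Over the whole 20 kb windows the fl H3K27ac list held 12 peaks covering 4718 bp at 6 of the 10 genes, and the cKO list 26 peaks covering 13751 bp at all 10. Joined where they overlapped by at least 1 bp, these made 26 regions, of which 12 were shared, 14 cKO only and 0 fl only. A cKO-only region was present at 8 of 10 genes (39.6% of all genes, 34.3% of the 12096 genes no longer than the longest of the 10). A shared region was present at 6 of 10 (41.3% and 36.5%), and a fl-only region at 0 (3.73% and 2.7%). For all genes together the regions numbered 9092 shared, 7224 cKO only and 1346 fl only. Part of these windows belongs to neighbours: 7 regions lay at the start of another protein-coding gene and not at that of the immediate early gene. Among them 5 were cKO only (at Ado, Rtn2, Hook2, Gm3336 and an annotated end of Bin3, whose strand the table lacks) and 2 shared (at Prdx2 and Atg101). Without them, 9 regions were cKO only and 10 shared. With lists of equal length the cKO-only regions numbered 6.

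The Egr genes had no H3K27ac peak anywhere in their windows in fl. Egr1 (chr18:34861207-34864956) had 1 in cKO, 1100 bp wide across the lower-coordinate end, with a fold enrichment of 9.86 (the authors' value over the caller's background, used only within a list). It lay inside an H3K4me3 peak that both lists held, 2146 bp wide in fl and 1897 bp in cKO. This peak ranked within the top 23.4% of the cKO H3K27ac list. Egr2 (chr10:67534469-67542188), known from nerve myelination and lymphocyte control, had its cKO start peak at chr10:67537443-67537825, 383 bp wide (fold 10.1). The caller's significance there, −log10 q, was 25.8. Over the whole H3K27ac lists the median −log10 q was 10.7 in fl and 18.3 in cKO. The median width was 421 bp in fl and 513 bp in cKO. Values of both lists are printed side by side below, and a higher one in cKO was not read as a gain at that gene. Its H3K4me3 peak was narrow in both lists (459 bp in fl, 392 bp in cKO) and lay upstream, 281 bp short of the H3K27ac peak in cKO. A second cKO-only H3K27ac region in the window, 1064 bp wide, stood at the start of Ado, a neighbouring dioxygenase gene, where H3K4me3 was present in both lists.

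Egr3 (chr14:70077317-70082613) was the weakest of the 3. In cKO it had an H3K27ac peak of 338 bp, 45 bp below the lower-coordinate end of the gene, with fold 5.57 and −log10 q 10.7. Another lay further out (fold 4.68, −log10 q 7.11), and their ranks were in the lower part of the list, at 74.9% and 91.3%. H3K4me3 touched Egr3 in fl only, as a 442 bp peak inside the gene with a −log10 q of 5.58 and a rank at 94.4% of its list. That peak began 62 bp outside the 1 kb window, so Egr3 counted as unmarked by H3K4me3 in both genotypes (1 of 10, against 52.7% of all genes). The 2 marks of Egr3 were therefore each seen in 1 genotype, and not in the same one.

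Fos (chr12:85473890-85477274), the AP-1 partner gene from which the family takes its name, was the 1 gene with no H3K27ac peak within 1 kb of the start. Its H3K4me3 start peak was among the strongest of the 10, with −log10 q at 67.7 in the fl list and 53.7 in the cKO list and a rank in the top 6.09% and 6.43%. H3K27ac was nevertheless present in both lists at a pair of places beside it. The nearer lay upstream, with its summit 1611 bp before the start in fl and 1601 bp in cKO (folds of 5.51 and 12.5). In fl it ranked at 97.0% of the list, close to the threshold. The farther lay 12.2 kb downstream of the start (fold 8.46 in the fl list, 16.1 in the cKO list), at chr12:85485866-85486391, and overlapped H3K4me3 peaks of both lists. No other protein-coding gene lies within 20 kb of Fos.

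Fosb (chr7:19302696-19310118), a FOS family gene induced with Fos, had a shared H3K27ac region at its start. The fl peak was 301 bp wide (fold 6.73, −log10 q 7.22) and the cKO peak 428 bp (fold 9.19, −log10 q 15.5). A shared region lay 9.97 kb upstream in fl and 10.1 kb in cKO, with folds of 8.96 and 12.4. There the fl list also held a 313 bp H3K4me3 peak that the cKO list lacked (−log10 q 7.26, rank at 90.1%). The cKO-only region of the Fosb window lay at the start of its neighbour Rtn2.

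The Jun genes differed among themselves. Jun (chr4:95049036-95052222) had a single H3K27ac region, at its start and shared, with a peak of 305 bp in fl (fold 7.17) and 369 bp in cKO (fold 8.86). Junb (chr8:84976909-84978748), which restrains proliferation of myeloid progenitors, held 3 H3K27ac peaks in fl, as did Nr4a1, and 6 in cKO, the most of the 10 genes in that list. The peak over its start was found in cKO only and was weak, with fold 4.13, −log10 q 7.86 and a rank at 87.8% of the list. A shared region lay just past its 3′ end, 324 bp from the gene in fl and 192 bp in cKO. Another stood 7.35 kb upstream in fl and 7.28 kb in cKO, with folds of 12.0 and 9.61, the strongest fl peak of the window by −log10 q (23.3). A cKO-only peak stood 1557 bp upstream (fold 4.86). Junb thus carried H3K27ac on either side of the gene in both lists, and over its start in the full cKO list only. With lists of equal length the start peak was absent.

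Jund (chr8:70697739-70700616), the most steadily expressed of the JUN genes in many cell types, had no H3K27ac peak in its window in fl. In cKO a peak 1330 bp wide, wider than 98.8% of the list, covered part of the gene (fold 4.99, −log10 q 12.8). Both H3K4me3 lists had a peak over the gene, 2062 bp wide in fl and 2192 bp in cKO. The fl peak began 28 bp beyond the 1 kb window of the listed start, so that H3K4me3 counted as cKO only there (1 of 10, against 1.62% of all genes). The peaks overlapped, and this is a difference in peak edges. The other 8 genes with H3K4me3 at the start had it in both lists (8 of 10, against 42.9%), and none in fl only (against 2.76%).

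Nr4a1 (chr15:101253902-101274795), the gene of NUR77, had a shared H3K27ac region over its listed start. The fl peak was 404 bp wide (fold 8.43, −log10 q 10.2) and the cKO peak 540 bp (fold 14.9, −log10 q 33.0). A shared region also lay 20.3 kb upstream of that start, with fold 13.0 in the fl list and 15.0 in the cKO list. A peak in cKO only (702 bp, fold 9.86) began 38 bp inside the lower-coordinate end of the gene span, 12.4 kb upstream of the listed start. The 1 remaining shared region belonged to the start of Atg101, an autophagy gene. Nr4a2 (chr2:57106830-57124003), the gene of NURR1, had its start peak in cKO only (409 bp, fold 11.9, −log10 q 22.0). This region also lay at the start of LOC105244150, whose annotated span overlaps that end of Nr4a2. Inside Nr4a2 a shared H3K27ac region was found 9.03 kb into the gene in fl, where it ranked at 97.0% of the list (fold 5.51), and 9.20 kb in cKO (fold 10.7). H3K4me3 peaks lay over the Nr4a2 start and at a pair of places inside the gene in both lists.

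H3K4me3 around the 10 genes was similar in extent in the lists of fl and cKO, with 20 peaks covering 23606 bp and 19 peaks covering 23083 bp. They made 21 regions, of which 18 were shared, 1 was cKO only and 2 were fl only. The shared regions touched the windows of all 10 genes (56.3% of all genes had one, and 50.4% of genes of like length). The cKO-only region stood at the start of Rnaseh2a in the Junb window (1 of 10 genes, against 5.24% and 4.8%). The fl-only regions were those inside Egr3 and upstream of Fosb described above (2 of 10 genes, against 7.7% and 7.23%).

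Most H3K4me3 start peaks of these genes were wide, a comparison chosen after the values were seen. In fl they measured 2146 bp at Egr1, 459 bp at Egr2, 1542 bp at Fos, 2416 bp at Fosb and 1848 bp at Jun. Junb had 2379 bp, Nr4a1 1409 bp and Nr4a2 844 bp. The list median was 788 bp. In cKO, Fosb had the widest at 2700 bp, wider than 99.9% of the list, and Egr2 the narrowest at 392 bp, with a list median of 750 bp. Among genes with a listed start, which leaves out Egr1, 5 of 7 fl start peaks were in the widest 10% of their list (1368 bp or more), against 11.9% of all genes with such a peak. In cKO 6 of 8 were (1309 bp or more), against 11.5%. The Egr1 peak was in the widest 10% in both lists. Egr2 and Nr4a2 were the exceptions in each genotype. Width was not particular to these 10 genes. Among other immediate early genes the fl start peak was also wide at Dusp2 (2392 bp), Klf4 (2081 bp), Ier2 (1655 bp) and Mcl1 (1547 bp). It was narrow at others, such as Gem (439 bp) and Ccn2 (371 bp).

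**Figure D2:**
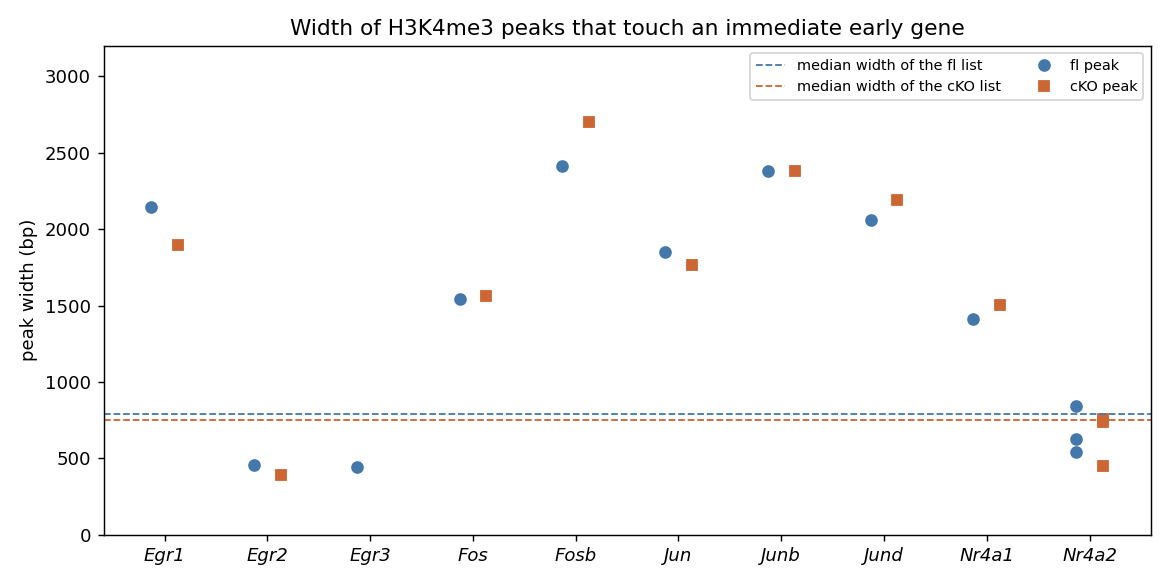
Width in bp of each H3K4me3 peak that touches the gene, 1 point per peak (circles fl, squares cKO), with the median width of each list as a dashed line. Egr1, Fos, Fosb, Jun, Junb, Jund and Nr4a1 lie at 1409 bp or above in both lists, and Egr2, Egr3 and Nr4a2 near or below the medians.

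Where a start carried both acetylation and H3K4me3, their summits lay apart. In fl, the H3K27ac summit stood 236 bp upstream of the Jun start and the H3K4me3 summit 919 bp downstream, and the peaks did not touch (87 bp between them). At Fosb the summits were 186 bp upstream and 1429 bp downstream. At Nr4a1 they were closer, at the start itself and 77 bp downstream. The H3K4me3 summit was not always at the same place in cKO. There it lay 483 bp downstream at Fosb and 810 bp downstream at Nr4a1. At Egr1 it lay 710 bp outside the lower-coordinate end in fl and 107 bp inside it in cKO. At Egr2 it lay 792 and 665 bp upstream. At Fos, Jun, Junb and Nr4a2 the H3K4me3 summits of the lists nearly coincided (919 and 920 bp at Jun). In cKO the H3K27ac summit was upstream of the H3K4me3 summit at Fosb, Jun, Junb, Jund, Nr4a1 and Nr4a2, and Egr2 had the opposite order. Among genes with a listed start the median distance between the summits was 1155 bp in fl over 3 of these genes, against 139 bp over 3960 genes. In cKO it was 800 bp over 7, against 141 bp over 6469. The peaks of the marks overlapped at 2 of 3 of these starts in fl and 5 of 7 in cKO, where 98.1% and 97.1% of all such genes had overlapping peaks. Genes in general also had H3K27ac on the upstream side more often than not, in 63.8% of cases in fl and 64.7% in cKO.

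The distance was set beside peak width as well. Among all genes whose H3K4me3 start peak was in the widest 10%, the median distance was 244 bp in fl (591 genes) and 266 bp in cKO (869 genes). The immediate early genes with such wide peaks had 1155 bp over 3 genes and 946 bp over 5. Their H3K4me3 peaks were wider than 91.3% (Nr4a1) to 99.7% (Fosb) of the fl list. In cKO this ran from 94.8% (Nr4a1) to 99.9% (Fosb). The genes were not matched for width within the widest 10%, so this comparison does not fully allow for width. These medians are descriptions of 1 library per mark and genotype, and the comparison of summit distance was chosen after the values were seen. The start used is the one listed, and for Jund both summits lay beyond it, 864 and 1664 bp downstream.

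**Figure D3:**
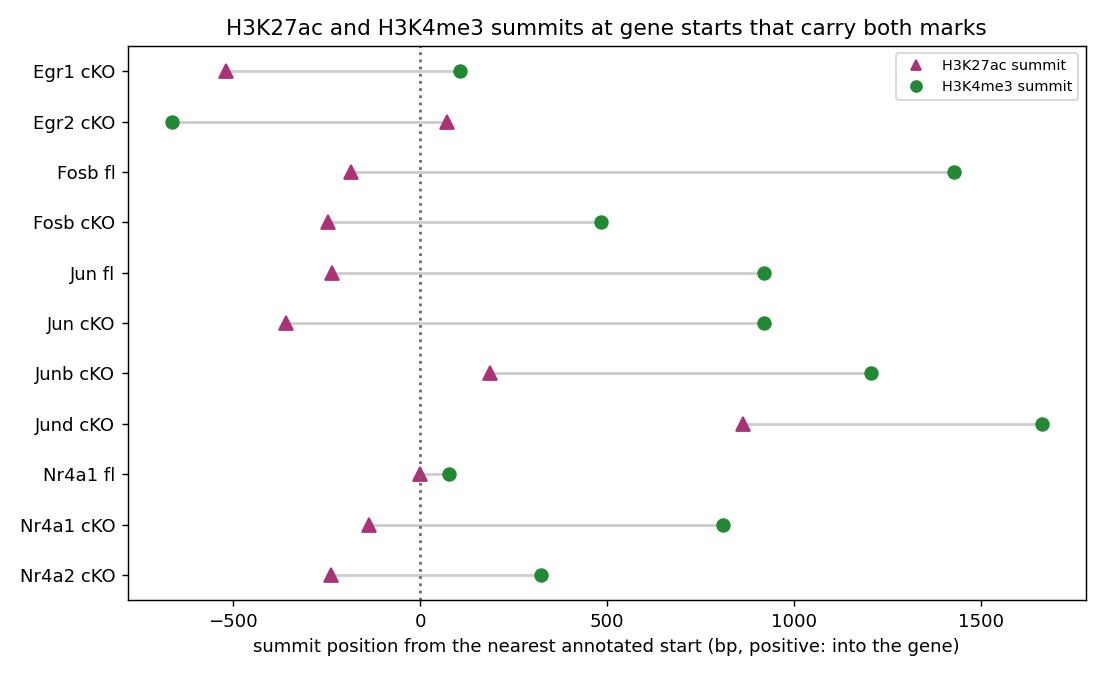
Position in bp of the H3K27ac summit (triangle) and the H3K4me3 summit (circle) from the nearest listed start, 1 line per gene and genotype in which both marks had a start peak, with Egr1 drawn from its lower-coordinate end. The triangle lies to the left of the circle on every line but that of Egr2.

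H3K9ac, measured in HSC, was found at none of the 10 starts in either genotype (0.521% of all genes had it in fl and 0.868% in cKO). The windows held 1 peak in fl and 2 in cKO, none overlapping another. Their −log10 q was low, as in the H3K9ac lists as a whole (median 2.42 in fl and 2.48 in cKO). Their ranks were 55.9% of the fl list, and 59.5% (Egr2) and 44.9% (Nr4a2) of the cKO list. The fl peak lay past the end of Egr2 (247 bp, −log10 q 1.64) and a cKO peak close to Ado in the same window (197 bp, −log10 q 1.70). The other cKO peak lay in the window of Nr4a2, 31.9 kb downstream of its start (209 bp, −log10 q 2.79). A cKO-only region was thus present at 2 of 10 genes (12.4% of all genes, 7.55% of genes of like length), a fl-only region at 1 (7.75% and 4.51%) and a shared one at 0 (1.11% and 0.612%). None of these peaks reached a −log10 q of 5.

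DEK, profiled in fl HSC alone, had peaks near 1 of the 10 genes, Nr4a1. The numbers of genes with a DEK peak within 20 kb were 0, 1 and 1 in replicates 1 to 3 (mean 0.667 ± 0.577, SD, n = 3), against 6.62%, 6.9% and 15.8% of all genes. For any library the count was 1 of 10 (23.8% of all genes, 14.4% of genes no longer than the longest of the 10), and Nr4a1 also was the 1 gene with peaks in at least 2 libraries (4.7% and 1.58%). The peaks were not at the same place. In replicate 2 the peak lay 1910 bp past the end of the gene (297 bp, fold 5.08, −log10 q 3.23). In replicate 3 it lay inside the gene, with its summit 1488 bp downstream of the listed start (173 bp, fold 7.19, −log10 q 7.14). There it stood 71 bp beyond the fl H3K4me3 start peak of LSK cells and overlapped the cKO one by 38 bp. The distance between the DEK peaks was 8.24 kb, so no place near these genes had DEK in more than 1 library.

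The wider pathway was read from 5 lists of 59 other genes. H3K27ac at the start was found in both lists at 24 of them, in cKO only at 28 and in fl only at 0. These shares of 40.7% and 47.5% stood beside 22.3% and 21.7% of all genes. H3K4me3 was in both lists at 50 (84.7%, against 42.9% of all genes), in cKO only at 1 (1.69%, against 1.62%) and in fl only at 2 (3.39%, against 2.76%), so that the counts in 1 genotype were near the general share. Among the 50 genes with H3K4me3 in both lists, H3K27ac was in both at 24 (48.0%, against 48.9% of all such genes) and in cKO only at 23 (46.0%, against 33%). No start of the 59 carried H3K9ac (0.521% of all genes had it in fl and 0.868% in cKO). Rps6ka3 was the 1 gene of the 59 with a DEK peak at an end, in 1 library. The share of all genes with DEK within 1 kb of a start was not counted, so this count has no comparison.

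The other genes of the same families were Egr4, Fosl1, Fosl2 and Nr4a3. Fosl1, which encodes the AP-1 protein FRA1, had H3K27ac in cKO only (fold 11.8, −log10 q 30.2). Nr4a3 (fold 5.66 in fl, 5.86 in cKO) and Fosl2 (5.69 and 6.19) had it in both lists, and Egr4 had neither mark.

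Among 20 other immediate early genes, 9 had H3K27ac in both lists and 7 in cKO only (45% and 35%, against 22.3% and 21.7% of all genes). Of the 16 with H3K4me3 in both lists these were 9 and 5 (56.2% and 31.2%), near the 48.9% and 33% of all such genes. The survival gene Mcl1 (−log10 q 14.6 in fl) and the MAP kinase phosphatase gene Dusp2 (12.5) were strongest in fl. The cKO-only starts with the highest −log10 q were those of Ier2 (26.3), Gem (18.0), the Krüppel-like factor gene Klf4 (18.0) and Ccn2 (11.6). H3K4me3 was in cKO only at Ier5l (706 bp, −log10 q 7.78) and in fl only at Ccn2 (371 bp, −log10 q 6.10). Of 9 bZIP genes whose proteins pair or compete with FOS and JUN, 2 had H3K27ac in both lists, Mafk and Maff (−log10 q 13.1 and 12.9 in fl). In cKO only there were 5, led by Mafg (17.4), Creb5 (17.1), Jdp2 (16.7) and Batf3 (16.4). These shares of 22.2% and 55.6% stood beside 22.3% and 21.7% of all genes. Of the 6 bZIP genes with H3K4me3 in both lists, 2 had H3K27ac in both and 3 in cKO only (against 48.9% and 33%).

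All 18 upstream regulators had an H3K27ac start peak in cKO, and 10 of them in fl too (43.9% of all genes had one in cKO, and 22.3% in both). Of the 17 with H3K4me3 in both lists, 10 had H3K27ac in both and 7 in cKO only (58.8% and 41.2%, against 48.9% and 33%). Mrtfa, a coactivator of SRF, and Elk4, an ETS partner of SRF, had the highest values in fl (−log10 q 13.7 and 13.1). Srf itself was cKO only (fold 8.48, −log10 q 17.3), as were the kinase gene Mapk8 (−log10 q 26.8) and the coactivator gene Mrtfb (30.3). Elk1 had H3K4me3 in fl only (393 bp, −log10 q 6.45) and H3K27ac in cKO only. The feedback inhibitors also all had an H3K27ac start peak in cKO, 7 of 8 in cKO only (against 21.7% of all genes). All 8 had H3K4me3 in both lists, and the cKO-only share of all such genes was 33%. They were led by the phosphatase gene Dusp6 (30.2), the EGR corepressor genes Nab2 (27.4) and Nab1 (22.8), and Spred1 (20.5). Dusp5 was in both lists (−log10 q 6.97 in fl).

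**Figure D4:**
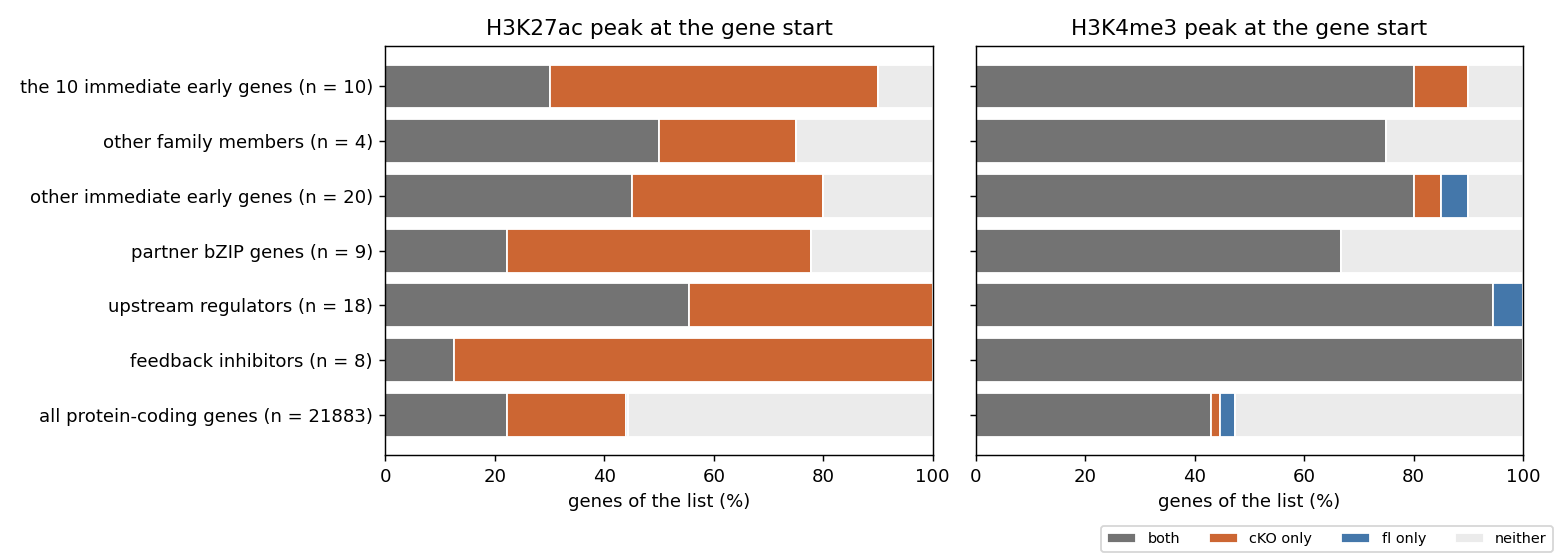
Share of genes in each list, in percent on the x axis, with an H3K27ac (left) or H3K4me3 (right) peak within 1 kb of a start in both lists, cKO only, fl only or neither. The cKO-only part of H3K27ac holds 6 of the 10 immediate early genes and 21.7% of all genes, and that of H3K4me3 holds 1 of 10 and 1.62%.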

How the data were processed

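The data were 9 CUT&Tag peak lists, 1 per library, so the authors called peaks per sample and not on pooled replicates. Bowtie2, Picard, MACS2 and the mm10 genome were used per the submitters' processing notes. No version, step order, control track or threshold is given there. The deposited columns used were fold enrichment (a ratio over the caller's background), the p-value and q-value as −log10 and a score of 10 times the −log10 p. They were used only to describe, rank or filter peaks within a list, since depth is unknown. Row names of DEK replicate 3 carry a Flag stem. Its label names DEK and was used. In the DEK lists 16 mitochondrial rows and 12 rows that broke the list's format or order were left out; the histone lists held 0 of either.

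Genes and starts came from RefSeq for GRCm38.p6. Of the 21883 genes 17491 had a listed start. For the other 4392, Egr1 and Egr3 among them, windows around both annotated ends were used. All 10 genes are named. Of the pathway lists, the named genes are the up to 4 cKO-only genes with the highest −log10 q, the up to 2 in both lists with the highest fl −log10 q, and those whose H3K4me3 or fl-only H3K27ac class differed; 1 such gene is not reported here. The genes, lists and rules were chosen with earlier results of these data known, and the comparisons of peak width and summit distance after these values were seen. No test between genotypes was possible with 1 library each. Class and region counting was tested on simulated peaks. Python 3.11.15, numpy 2.4.6, pandas 2.3.3 and matplotlib 3.10.9 were used. Alternatives were the start window, flank, overlap, a −log10 q of at least 5, lists of equal length, irregular rows kept and each DEK library left out.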

Additional observations from a re-analysis of the deposited data

How the results depend on the processing

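Of 95 values recomputed under other settings, 77 stayed within 1.5 times the reported count and 18 did not. With 2.5 kb on each side of the start, H3K27ac was in both lists at 5 genes (23.3% of all genes), Fos and Junb added, and H3K4me3 was cKO only at 0 and fl only at 1 (Egr3), with 0 pathway genes cKO only for H3K4me3. With a 10 kb flank there were 0 cKO-only H3K4me3 regions and 1 cKO-only H3K9ac region. With a 50 kb flank the cKO-only regions were 24 for H3K27ac, 2 for H3K4me3 and 5 for H3K9ac, and 2 genes had a DEK peak in any library. At a −log10 q of at least 5, H3K9ac regions were 0 in cKO only and 0 in fl only, and 0 genes had DEK in at least 2 libraries. With lists of equal length, 3 starts and 6 regions had H3K27ac in cKO only, and 1 pathway gene, Fosl2, was fl only. Without DEK replicate 1, 2 or 3 in turn, the genes with DEK in at least 2 libraries ranged from 0 to 1 (0 without replicate 2 and 0 without replicate 3). These alternatives differ in the peaks, libraries or bases they admit. No paired analysis was possible because each mark had 1 library per genotype and DEK was profiled in fl alone.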
